A study of Mus musculus with 8 samples.

Results

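The distal stretch of mouse chromosome 6 was taken as the consensus regions that start at 110 Mb or later, 1128 of the 57417 regions in which at least 1 line had a peak. The rest of the chromosome, 2071 regions that start below 110 Mb, served as the comparison. The stretch was picked because its regions had slightly higher counts in the paclitaxel-resistant and the vinorelbine-resistant line than in the parental line. Values of those 2 lines against the parental line are therefore given as a description, with no test. The eribulin-resistant line against the parental line, which the choice did not use, was tested. The 2 shifted lines were tested against each other as well, but a stretch picked for a rise in both favours a small difference between them, so a low count of calls there is partly built in. On the rest of the chromosome, which that choice left out, it can favour a difference between them. Positions are on mm10 (GRCm38). The first region starts at 110139325 and the last ends at 149566435, a span of 39.4 Mb that makes up 26.4% of the part of the chromosome covered by regions.

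All 8 libraries came from PB3, a mouse breast cancer line labelled Er-/Pr-/Her2-, with 2 libraries for each of 4 lines. PB3-Parental was untreated. PB3-ERI-R, PB3-PAC-R and PB3-VIN-R were derived from it under eribulin (spelled erubilin in most labels), paclitaxel and vinorelbine, each applied at 300, 500 and 800 nM. The labels speak of resistant clones without giving how many were kept, so each line may stand for few founder cells, and they do not say whether the 2 libraries of a line came from separate cultures. P-values then measure only the spread between these libraries.

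Eribulin and vinorelbine block the growth of microtubules and paclitaxel stabilizes them, so all 3 drugs disturb the mitotic spindle. ATAC-seq measures where a transposase can cut DNA, and promoters and enhancers stand out as regions of many cuts. The count of a region depends on how open it is and also on how many copies of the DNA the cells hold. The counts alone cannot tell these apart, and no DNA measurement was used here. The distal stretch carries well-known growth genes, among them Ccnd2 (cyclin D2), Cdkn1b (the cell cycle inhibitor p27) and Foxm1 (a regulator of mitotic genes). It also carries the natural killer (NK) gene complex of lectin-like receptors and the miR-200c and miR-141 microRNA hairpins, which are known for repressing Zeb1 and Zeb2 in epithelial cells.

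A few sequences are shown because the results below turn on them. The mature microRNAs of the hairpins next to the region with a large gain in PB3-ERI-R are printed with the seed (bases 2 to 8) in capitals, from RefSeq (GRCm38.p6).
mmu-miR-200c-3p: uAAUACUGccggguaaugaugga
mmu-miR-141-3p: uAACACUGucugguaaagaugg
The 2 seeds are AAUACUG and AACACUG, so the 2 microRNAs belong to different seed groups. Promoter windows, which run from 250 bases before to 50 after a transcription start, are printed for 4 genes, with every match to a searched motif in capitals. The windows of Clec2h, Creld1 and Syn2 lie under regions among the 5 highest or 5 lowest of a comparison. The Ptpn6 window was taken as a neighbour of the miR-200c region. The motifs searched on both strands were the AP-1 motif TGANTCA, the GC box GGGCGG, the ETS motif CCGGAAG, the CCAAT box, the E-box CACGTG and the TATA box TATAAA.
Clec2h, chr6:128662135-128662434, plus strand, under a region that was higher in PB3-PAC-R and PB3-VIN-R: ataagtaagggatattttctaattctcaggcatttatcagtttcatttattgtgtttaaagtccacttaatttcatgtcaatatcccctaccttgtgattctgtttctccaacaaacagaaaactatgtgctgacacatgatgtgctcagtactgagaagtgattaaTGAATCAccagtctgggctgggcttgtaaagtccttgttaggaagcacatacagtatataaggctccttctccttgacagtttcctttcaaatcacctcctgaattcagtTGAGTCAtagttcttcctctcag
Ptpn6, chr6:124738660-124738959, minus strand, under a region that gained in PB3-ERI-R: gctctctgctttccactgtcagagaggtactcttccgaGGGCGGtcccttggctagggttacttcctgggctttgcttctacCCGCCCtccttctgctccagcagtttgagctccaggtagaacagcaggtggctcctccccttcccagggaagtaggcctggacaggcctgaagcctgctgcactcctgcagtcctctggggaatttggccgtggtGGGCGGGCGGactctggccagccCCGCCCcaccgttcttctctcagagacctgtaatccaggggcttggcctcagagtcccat
Creld1, chr6:113483106-113483405, plus strand, under a region that was lost in PB3-ERI-R: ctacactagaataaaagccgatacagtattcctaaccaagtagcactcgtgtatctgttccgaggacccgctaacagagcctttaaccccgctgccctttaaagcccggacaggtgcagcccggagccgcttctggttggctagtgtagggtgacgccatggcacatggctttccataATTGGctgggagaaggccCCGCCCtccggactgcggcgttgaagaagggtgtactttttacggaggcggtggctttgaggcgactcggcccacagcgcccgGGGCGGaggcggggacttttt
Syn2, chr6:115134652-115134951, plus strand, under a region that gained in PB3-ERI-R and was lower in the other 2 resistant lines: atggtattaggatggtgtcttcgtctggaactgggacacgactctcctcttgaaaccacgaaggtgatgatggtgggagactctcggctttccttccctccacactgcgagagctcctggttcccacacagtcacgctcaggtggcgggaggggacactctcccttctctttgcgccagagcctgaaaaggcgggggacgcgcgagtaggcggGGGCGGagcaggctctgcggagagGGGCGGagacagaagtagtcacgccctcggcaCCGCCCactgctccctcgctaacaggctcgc
The Clec2h window held 2 AP-1 matches and no match to the other motifs. The Ptpn6 window held 5 GC box matches, the Creld1 window 2 GC box matches and 1 CCAAT match, and the Syn2 window 3 GC box matches.

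Libraries held 10521964 to 24052237 counts, and the distal stretch took between 1.82% and 2.34% of them. All 1128 members passed the filter on low counts. Replicates of every line differed by more than counting error, with a chi-square per degree of freedom of 4.80 to 10.34. Of the marker lists, 6 of 6 epithelial loci (such as Epcam and Cdh1) and 4 of 4 mesenchymal loci (such as Vim and Zeb1) had accessible regions. So did 2 of 4 leukocyte (Ptprc and Itgam), 2 of 2 endothelial (Pecam1 and Kdr) and 2 of 2 adipocyte loci (Adipoq and Fabp4), while Cd68, Adgre1 and Pgr had none. Of the genes behind the Er-/Pr-/Her2- label, Esr1 (87.3 CPM ± 4.31, SD, n = 2, in PB3-Parental) and Erbb2 (38.0 CPM ± 3.75) did have accessible regions, which says nothing of their expression. CPM stands for counts scaled by library size after TMM, with separate TMM factors for regions, windows and loci.

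Regions of distal chromosome 6 were higher than in PB3-Parental by a small and even amount in PB3-PAC-R and PB3-VIN-R, in all 8 of its 5 Mb windows. The median log2 fold change over the 1128 regions was 0.26 in the PB3-PAC-R line and 0.31 in PB3-VIN-R. Over the regions of other chromosomes it was -0.01 in both. A value above 0 was found for 84.3% of the members in the PB3-PAC-R line and 83.0% in PB3-VIN-R, against 48.7% and 47.7% of all regions. Both comparisons share the parental libraries, so they are not independent of each other, and both were used to choose the stretch.

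The 2 lines differed on the rest of the chromosome. Below 110 Mb the median was 0.15 in PB3-PAC-R, with 75.8% of regions above 0, and -0.07 in PB3-VIN-R, with 37.0% above 0. PB3-PAC-R had a median above 0 in each 5 Mb window of the chromosome, with higher values from 110 Mb on, though both of its libraries were above both parental libraries in 15 of the 22 windows below 110 Mb only. Its 1 Mb bins from 104 to 108 Mb, with 1 to 6 regions each, had medians below 0 (-0.04 to -1.70). PB3-VIN-R was higher on the distal stretch and slightly lower before it. The comparison of PB3-VIN-R with PB3-PAC-R shows the same without the parental libraries: the median difference was 0.06 on the distal stretch, -0.21 below 110 Mb and 0.00 on other chromosomes.

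**Figure D1:**
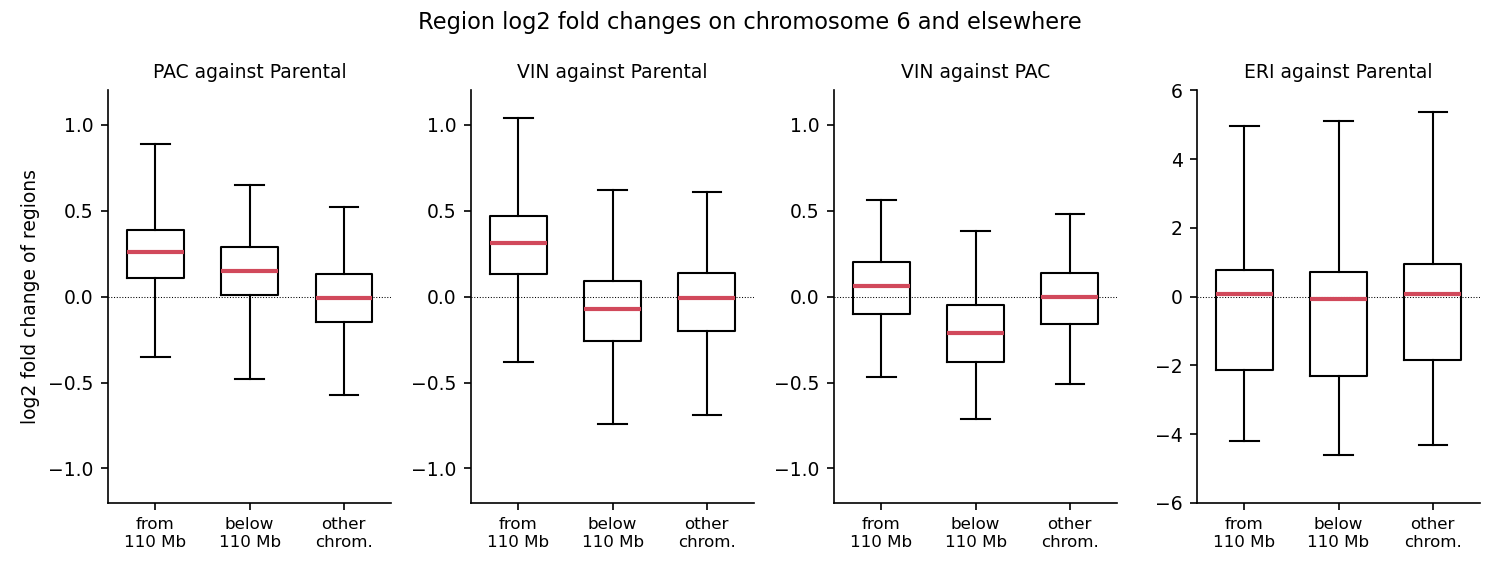
Log2 fold change of regions for 4 comparisons (vertical axes; the axis of PB3-ERI-R is wider), for chromosome 6 from 110 Mb on, chromosome 6 below 110 Mb and all other chromosomes. Lines mark medians, boxes the middle 50% and whiskers the 5th to 95th percentile. The medians of PB3-PAC-R (0.26) and PB3-VIN-R (0.31) lie above the upper box edges of other chromosomes (0.13 and 0.14), and the PB3-ERI-R boxes are many times wider.

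The share of a library's counts shows the shift library by library. In PB3-Parental the distal stretch took 1.85% and 1.84% of the counts. It took 2.12% and 2.26% in PB3-PAC-R, and 2.24% and 2.34% in PB3-VIN-R. All 4 libraries of these lines were above both parental libraries. The 2 PB3-ERI-R libraries, with 1.85% and 1.82%, were at the parental level by this share, which is not scaled by TMM. In CPM their distal sums were 23042 and 21159, above PB3-Parental (17440 and 17374). Their sums below 110 Mb were above it too (38432 and 36196 against 32611 and 32763).

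The ratio of distal to proximal counts does not depend on how libraries are scaled. It was 0.535 and 0.530 in PB3-Parental (mean 0.532 ± 0.00354, SD, n = 2). It was 0.674 and 0.710 in PB3-VIN-R (0.692 ± 0.0255), the highest of the 4 lines. PB3-PAC-R had 0.580 and 0.570 (0.575 ± 0.00707) and PB3-ERI-R 0.600 and 0.585 (0.593 ± 0.0106). Each resistant line was above both parental libraries, and PB3-PAC-R and PB3-ERI-R lay next to each other without overlap. With 2 libraries against 2, an exact permutation test cannot give a two-sided p below 0.333, so no test was made.

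**Figure D2:**
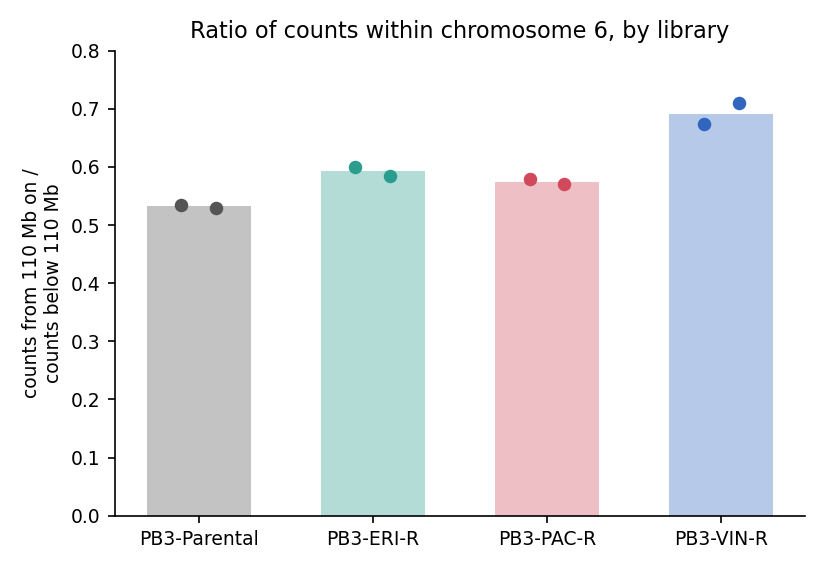
Ratio of counts in chromosome 6 regions from 110 Mb on to counts in regions below 110 Mb (vertical axis, from 0) for each library (points) and the mean of each line (bars). Both PB3-VIN-R libraries (0.674 and 0.710) are above all others, and both PB3-Parental libraries (0.535 and 0.530) are the lowest.

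By 5 Mb window, the distal stretch was even. In the 8 windows from 110 Mb on, the median log2 fold change ran from 0.23 to 0.28 in PB3-PAC-R and from 0.25 to 0.35 in PB3-VIN-R. In the 22 windows below it ran from 0.03 to 0.19 in PB3-PAC-R and from -0.35 to 0.09 in PB3-VIN-R, so the distal and proximal windows did not overlap in either line. By summed counts, both libraries of PB3-PAC-R were above both parental libraries in 8 of the 8 distal windows, and so were those of PB3-VIN-R. Over all 536 windows of the genome this was so in 15.9% and 14.7%. The choice of the stretch rests on these same values.

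The replicates of the shifted lines were apart. On the distal stretch the median deviation from the parental mean was 0.19 in library 1 and 0.31 in library 2 of PB3-PAC-R, and 0.23 and 0.36 in PB3-VIN-R. The 2 parental libraries were at 0.01 and -0.01. Library 2 was thus the higher of each pair, and leaving it out lowered the median fold change to 0.18 in the PB3-PAC-R line and 0.26 in PB3-VIN-R. On other chromosomes the libraries of PB3-PAC-R were at -0.02 and -0.01 and those of PB3-VIN-R at -0.04 and 0.00. All 4 libraries stayed above both parental libraries on the distal stretch.

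**Figure D3:**
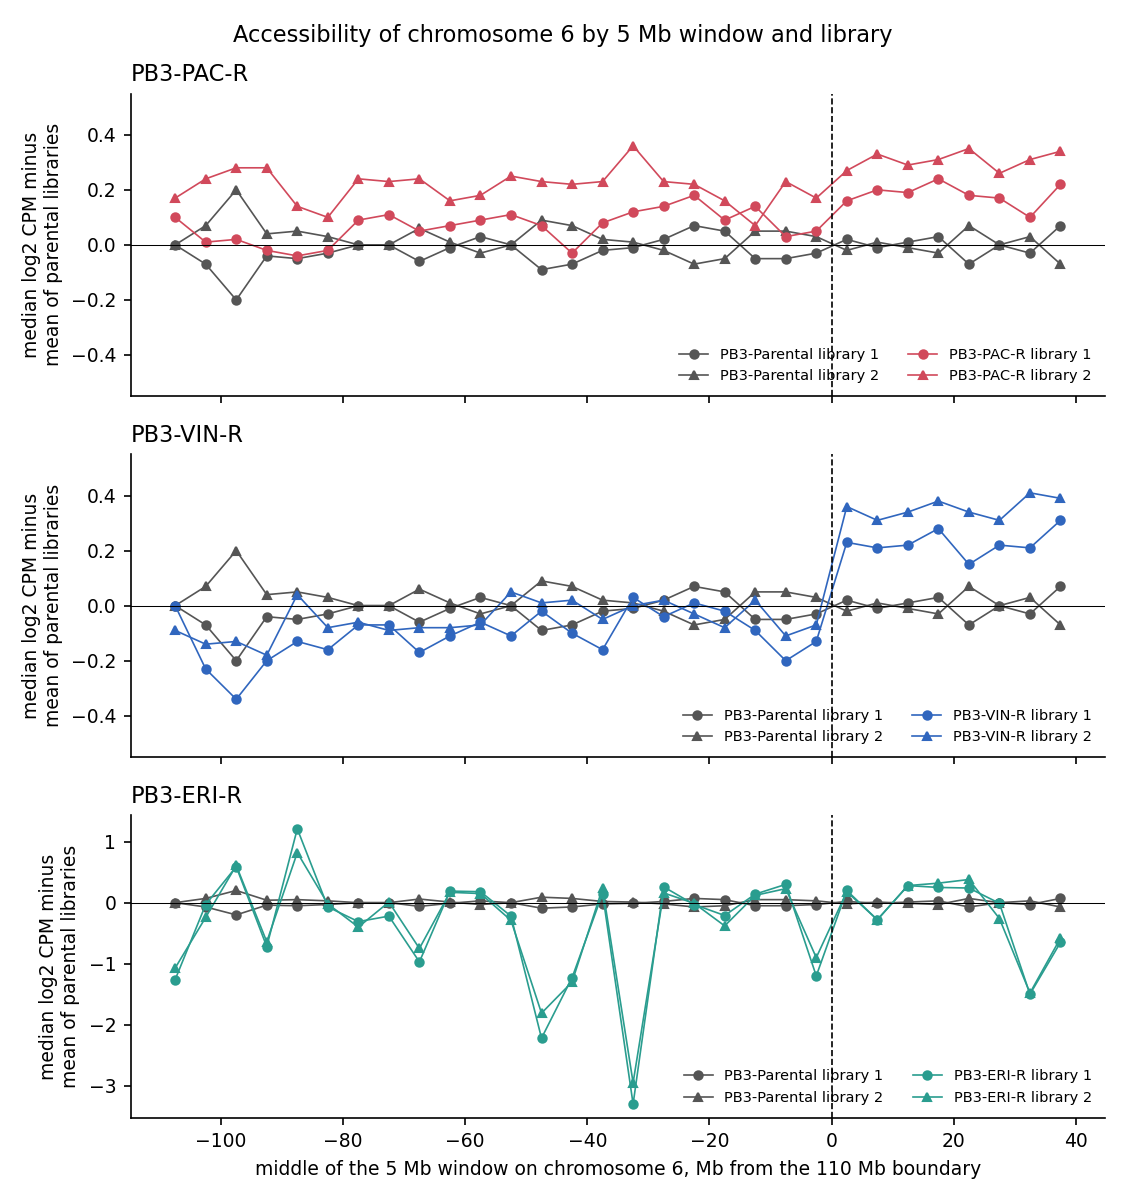
Median deviation of log2 CPM from the mean of the 2 parental libraries (vertical axis) in each 5 Mb window of chromosome 6 (horizontal axis, distance in Mb of the window's middle from the 110 Mb boundary), with 1 line per library and 1 panel per resistant line. PB3-VIN-R is at 0.15 to 0.41 in the windows past the boundary and at -0.34 to 0.05 before it. PB3-PAC-R is above 0 in most windows. Its libraries are at 0.10 to 0.35 past the boundary and -0.04 to 0.36 before it, so these values overlap. PB3-ERI-R (wider axis) moves both ways.

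Few other places of the genome had such values. Among the 503 windows with at least 20 regions, the distal windows ranked 3 to 16 by the median of PB3-PAC-R and 5 to 12 by that of PB3-VIN-R. The 8 other windows at or above the lowest distal one in PB3-PAC-R were all on chromosome 15, at 0.23 to 0.31. In PB3-VIN-R the 4 other such windows lay on the X chromosome between 35 and 60 Mb, at 0.61 to 0.71. Chromosome 15 as a whole had medians of 0.22 in the PB3-PAC-R line and 0.11 in PB3-VIN-R over 2662 regions. The middle 95% of windows outside chromosome 6 ran from -0.13 to 0.22 in PB3-PAC-R and from -0.15 to 0.13 in PB3-VIN-R.

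The rise of PB3-VIN-R was not seen in the first regions past 110 Mb. From 110139325 to 111054957, 8 regions in or upstream of Grm7 (a glutamate receptor gene) had a median of -0.08 in PB3-VIN-R, and 1 of 8 was above 0. The widest of them, in Grm7 at 111054041-111054957, held 40.3 and 50.6 CPM in PB3-Parental and 41.0 and 43.9 in PB3-VIN-R, which overlap. The next region starts at 112197528 near Lmcd1, and the 1120 regions from there to the end had a median of 0.31. No region lies in between. The Lmcd1 locus overlapped as well, with 46.6 and 51.1 CPM in PB3-Parental and 61.1 and 48.1 in PB3-VIN-R. Regions in or near Lmcd1 ran from -0.15 to 1.47 in PB3-VIN-R, so single regions do not fix the place of the step. Without the first 8 regions the medians of the stretch were the same, 0.26 in the PB3-PAC-R line and 0.31 in PB3-VIN-R.

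PB3-PAC-R did not follow the same pattern at the boundary. Its first 8 regions had a median of 0.27, and 8 of 8 were above 0. The 64 regions in the 5 Mb before the boundary had a median of 0.14 with 43 above 0. Just outside the boundary, the region at 109859612-109860115 had log2 fold changes of 0.19 in the PB3-PAC-R line and -0.04 in PB3-VIN-R. Just inside it, the region at 110139325-110139897 had 0.18 and -0.54.

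**Figure D4:**
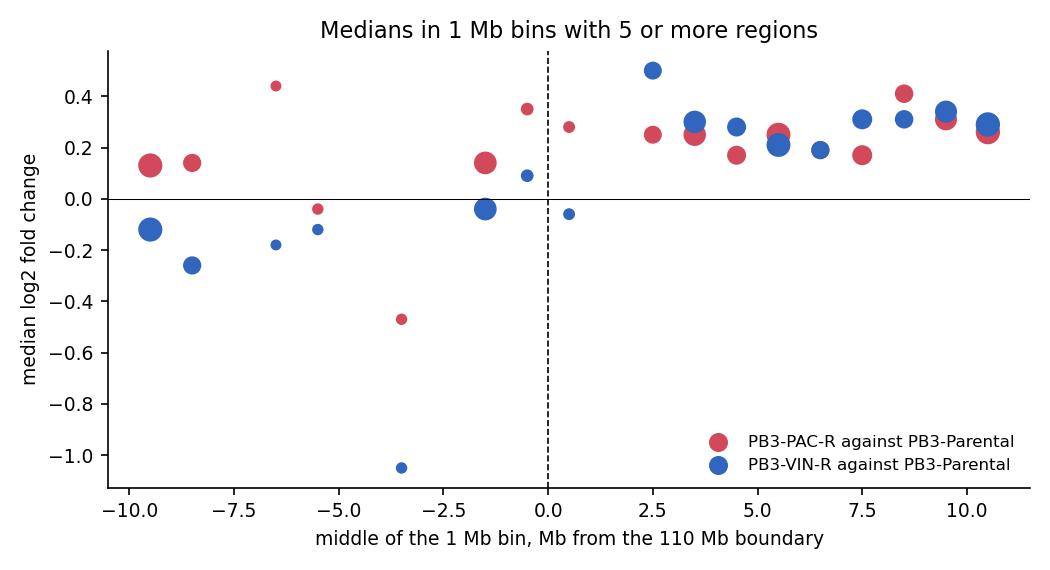
Median log2 fold change against PB3-Parental (vertical axis) in 1 Mb bins around the boundary (horizontal axis, distance in Mb of the bin's middle from 110 Mb), for bins with 5 or more regions. Larger points hold more regions. The PB3-VIN-R bins from 2 Mb past the boundary on lie between 0.19 and 0.50, while the bin just past the boundary, with 7 regions, is at -0.06.

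Within the stretch the shift of PB3-PAC-R and PB3-VIN-R was of similar size in most kinds of regions, but not in classes set by the peaks of single lines. Regions within 1 kb of either end of a gene had medians of 0.25 and 0.34 (246 regions), and those farther away had 0.26 and 0.29 (882 regions). The 190 regions over a promoter window had 0.25 and 0.32. The 322 regions that were peaks in all 4 lines had 0.25 and 0.31, with 95.7% and 93.2% of them above 0. The third of regions with the most signal had 0.24 and 0.31, and the third with the least had 0.31 and 0.33. The 286 regions that were peaks in all lines but PB3-ERI-R had 0.22 and 0.24. Regions that were peaks in PB3-PAC-R and PB3-VIN-R only had 0.50 and 0.47, but that class was chosen by these lines: the same class had 0.22 and 0.19 on other chromosomes. The 154 regions that were peaks in PB3-ERI-R alone had lower medians, 0.17 and 0.11, with 64.3% and 54.5% above 0. On other chromosomes that class had -0.09 and -0.21. The 162 regions that were peaks in PB3-VIN-R alone had 0.32 and 0.49, beside 0.06 and 0.21 on other chromosomes.

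The authors' peak lists, 1 per line, moved in the same direction, but they belong to the same libraries that chose the stretch and are not separate evidence. Of the peaks of PB3-Parental, 654 lay on the distal stretch (1.738% of its list), against 772 in the PB3-PAC-R line (1.959%) and 939 in PB3-VIN-R (2.068%). PB3-ERI-R had 541 (1.758%). PB3-VIN-R, whose libraries held the most counts, also had the longest list, 45415 peaks against 37619 in PB3-Parental. The part of depth in these numbers was not tested. Peaks in PB3-PAC-R and PB3-VIN-R only made up 9.75% of the distal regions, 6.37% of the regions below 110 Mb and 5.35% of all regions. The median fold enrichment of the peaks, as the authors' lists give it, was 17.72 to 20.28 in the 4 lines on this stretch. The stretch was also denser than the rest of the chromosome, with 28.6 regions per Mb against 19.5, and 63.6% of its regions lay inside a protein-coding gene.

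The highest fold changes of the 2 lines were far above the median of the stretch. These regions were ranked by fold and had to have 1 sign over every pairing of libraries, so in them the lines could not overlap the parental libraries. Their minimum mean level can be met through the lines where they are high alone. A region 10.5 kb from Slco1a1 (an organic anion transporter gene) at 141896210-141896757 had 0.903 and 0.732 CPM in PB3-Parental, 6.85 and 3.01 in PB3-PAC-R, and 9.99 and 7.82 in PB3-VIN-R. PB3-ERI-R, with 0.929 and 1.11, was near the parental level. The region over the Clec2h promoter, a C-type lectin gene, had 4.45 and 1.46 CPM in PB3-Parental, 10.7 ± 2.29 in PB3-PAC-R (SD, n = 2) and 12.9 ± 2.86 in PB3-VIN-R (log2 1.83 and 2.11). The other 3 highest regions lay 1.28 kb from Slc6a12 (a betaine and GABA transporter gene; log2 1.78 and 2.62), in C2cd5 (2.19 and 2.07) and in Cacna1c (a calcium channel gene; 1.77 and 1.43).

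The 5 lowest regions were taken in the same way. A region in Grin2b, a glutamate receptor gene, went from 19.9 and 39.3 CPM in PB3-Parental to 8.83 and 6.64 in the PB3-PAC-R line and 13.3 and 8.41 in PB3-VIN-R. The parental libraries were far apart here. The others lay in Dusp16 (-0.97 and -1.14), over the Syn2 promoter (-0.95 and -1.11), in Prrt3 (-0.90 and -1.08) and in Vgll4 (-0.97 and -0.93). The Dusp16, Syn2 and Vgll4 regions were peaks in PB3-ERI-R alone and held 1.75 to 5.06 CPM in the parental libraries. They can meet the minimum mean level through PB3-ERI-R. Without PB3-Parental library 2 the Syn2 region was at -0.33 and -0.49. Of all members, 43 in the PB3-PAC-R line and 67 in PB3-VIN-R had a log2 fold change of at least 1, and 5 and 7 had one of -1 or less.

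Between PB3-VIN-R and PB3-PAC-R, edgeR's quasi-likelihood test called no region of the 1128 (0.00871% of all regions were; 64 members had an unadjusted p under 0.05, and DESeq2 also called 0). None of the 8 distal windows was called (2.43% of all windows were, and 0 of the 8 had an unadjusted p under 0.05), with log2 differences of 0.00 to 0.09 and standard errors of 0.04 to 0.06. Below 110 Mb, 6 of 22 windows were called, all lower in PB3-VIN-R, by log2 values of -0.20 to -0.30, where the choice of the stretch can favour a difference. The clearest was the window from 35 to 40 Mb (-0.24 ± 0.04, SE; adjusted p = 0.0175 in edgeR's quasi-likelihood test), with summed CPM of 2564 and 2748 in the PB3-PAC-R line and 2293 and 2199 in PB3-VIN-R. That count moved with the libraries in the fit: it was 0 without PB3-PAC-R library 2, 0 without PB3-VIN-R library 2, 1 without PB3-VIN-R library 1 and 10 without PB3-PAC-R library 1. It was 2 without PB3-ERI-R library 2, and 3 without either of the parental libraries.

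Gene loci, the sums of counts over the regions in or within 50 kb of a gene, gave the same picture. Of the 428 protein-coding genes of the stretch, 302 had at least 1 region. A log2 fold change above 0 was found for 87.4% of these loci in the PB3-PAC-R line and 89.4% in PB3-VIN-R, against 43.3% and 47.8% of all 14943 loci. Both libraries lay above both parental libraries at 194 of the 302 loci in PB3-PAC-R (64.2%; 12.9% of all loci) and at 208 in PB3-VIN-R (68.9%; 13.8% of all loci). These values come from the contrasts that chose the stretch. A locus value is the accessibility in and near a gene, not its expression.

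Genes of growth, the cell cycle and genome repair were higher along with their neighbours. All 24 loci of this list were above 0 in both lines, with medians of 0.26 in the PB3-PAC-R line and 0.32 in PB3-VIN-R, where the 302 loci had 0.24 and 0.31. At Ccnd2 the libraries had 32.1 and 31.3 CPM in PB3-Parental, 37.7 and 40.2 in PB3-PAC-R, and 37.3 and 44.4 in PB3-VIN-R, and both lines were above the parental libraries without overlap. Lrp6, a coreceptor for Wnt ligands, had 153 and 160 in PB3-Parental, 182 and 213 in PB3-PAC-R, and 205 and 234 in PB3-VIN-R.

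Other named loci had smaller or more scattered values. Etv6, an ETS transcription factor, had log2 0.10 in both lines, with a standard error of 0.12. Vhl, which marks hypoxia-inducible factors for degradation, had 0.34 and 0.23, and Foxm1 had 0.22 and 0.36. These values moved with single libraries. Vhl was at 0.13 in PB3-PAC-R without its library 2 and at 0.04 in PB3-VIN-R without its library 2, and Foxm1 was at 0.03 and 0.18 without PB3-Parental library 1. Etv6 in PB3-PAC-R was at -0.02 without its library 2. At Vhl the 33.2 and 37.7 CPM of PB3-Parental overlapped those of PB3-VIN-R (36.6 and 46.8) but not those of PB3-PAC-R (38.5 and 51.0). Pparg, an adipocyte regulator, had 0.25 and 0.06 (0.15 and -0.05 without PB3-Parental library 1). Gapdh, a glycolytic enzyme, had 0.18 and 0.38 (0.07 and 0.27 without PB3-Parental library 2).

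Most other lists lay near the same medians, and the organic anion transporters did not. The 24 signalling loci had 0.21 in the PB3-PAC-R line and 0.31 in PB3-VIN-R, the 19 metabolic loci 0.22 and 0.30, the 12 epithelial, mesenchymal and matrix loci 0.25 and 0.29, and the 29 lectin-like receptor loci 0.27 and 0.32. The 6 microtubule related loci had 0.29 in both; among them Bicd1, a dynein adaptor, had 0.00 and 0.26, and Tuba8, an alpha tubulin, -0.09 and 0.12. The 3 loci of organic anion transporters had 1.12 and 1.16, and Slco1a1 held only 1.07 and 0.853 CPM in PB3-Parental. High values were not limited to this family, as adjacent loci had them too. Golt1b had 0.85 and 1.19, Gys2 0.60 and 1.45 and Pyroxd1 0.46 and 0.57. Recql (0.31 and 0.48) and Ldhb (0.02 and 0.07), also close by, were lower. Slco1a5 had 8.81 and 8.07 CPM in PB3-Parental, 18.5 and 18.2 in PB3-PAC-R, and 18.0 and 19.7 in PB3-VIN-R, with no overlap. None of the 28 bitter taste receptor and salivary protein genes had a region.

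In PB3-ERI-R the stretch changed region by region, up and down. In bulk libraries, a change in every cell and a change in the mix of cells cannot be told apart. Against PB3-Parental, 386 members rose and 449 fell in edgeR's quasi-likelihood test at an adjusted p under 0.05, together 74.0% of the members. Of all regions, 35.4% rose and 37.6% fell, together 73.0%. Without a scaling factor the split was 266 against 497, since the all-region median then moved from 0.07 to -0.29. The members' median was 0.09, beside -0.08 below 110 Mb and 0.07 on other chromosomes. Without a scaling factor it was -0.27. Regions within 1 kb of a gene end had a median of 0.41 (117 rose and 34 fell), and those farther away had -0.39 (269 rose and 415 fell). Gene-end regions elsewhere had medians of 0.37 below 110 Mb and 0.35 on other chromosomes.

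The 8 distal windows of PB3-ERI-R ran from a median of -1.51 to 0.35. By window sums, which have their own TMM factors, 4 of the 8 were called, where 69.2% of all windows were. The windows from 110, 120 and 130 Mb rose, by log2 values of 0.12, 0.17 and 0.48. The window from 140 Mb fell by 0.22 on the log2 scale. The window from 130 Mb, which holds Cdkn1b, Dusp16 and Etv6, had summed CPM of 1343 and 1430 in PB3-Parental and 1997 and 1881 in PB3-ERI-R. Of the 302 loci, 86 rose and 95 fell, together 59.9%, where 58.5% of all loci were called.

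A region over the miR-200c hairpin was among the clear gains of PB3-ERI-R. It lies at 124718039-124719374, covers the whole Mir200c hairpin (124718322-124718390, minus strand) and starts 54 bp from Mir141. The libraries had 1.69 and 1.66 CPM in PB3-Parental, 60.5 and 44.4 in PB3-ERI-R, 1.54 and 1.44 in PB3-PAC-R, and 2.14 and 2.12 in PB3-VIN-R. PB3-ERI-R was far above the rest (log2 4.96 ± 0.27, SE; adjusted p = 2.99e-09 by edgeR's quasi-likelihood test), and the remaining 6 libraries were all low. The region was a peak in PB3-ERI-R alone. By distance it was assigned to Phb2, a mitochondrial protein gene, and is that locus's only region (log2 4.68). The hairpins and their neighbours were looked at after the values of this locus were seen.

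The neighbours of that region changed both ways. The region over the Ptpn6 promoter, a phosphatase gene, at 124738542-124739022 had 8.07 and 6.85 CPM in PB3-Parental and 98.5 and 82.2 in PB3-ERI-R (log2 3.60 ± 0.20). A second region in Ptpn6 fell (log2 -1.65), as did 2 of the 3 neighbouring regions in Lpcat3 (-2.49 and -3.30), while the third rose (0.84). Lpcat3 encodes a phospholipid-remodelling enzyme. The region shared by the Emg1 and Phb2 promoters had 51.5 and 52.4 CPM in PB3-Parental and 66.9 and 73.4 in PB3-ERI-R (log2 0.43; adjusted p = 0.0257 by edgeR), a call that was lost without PB3-ERI-R library 2 or either of the parental libraries, with no scaling factor (0.08) and with offsets that take out the median of each 5 Mb window (0.14). Of the 12 microRNA hairpins on the stretch, 2 were covered by a region, Mir200c and Mir7045.

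**Figure D5:**
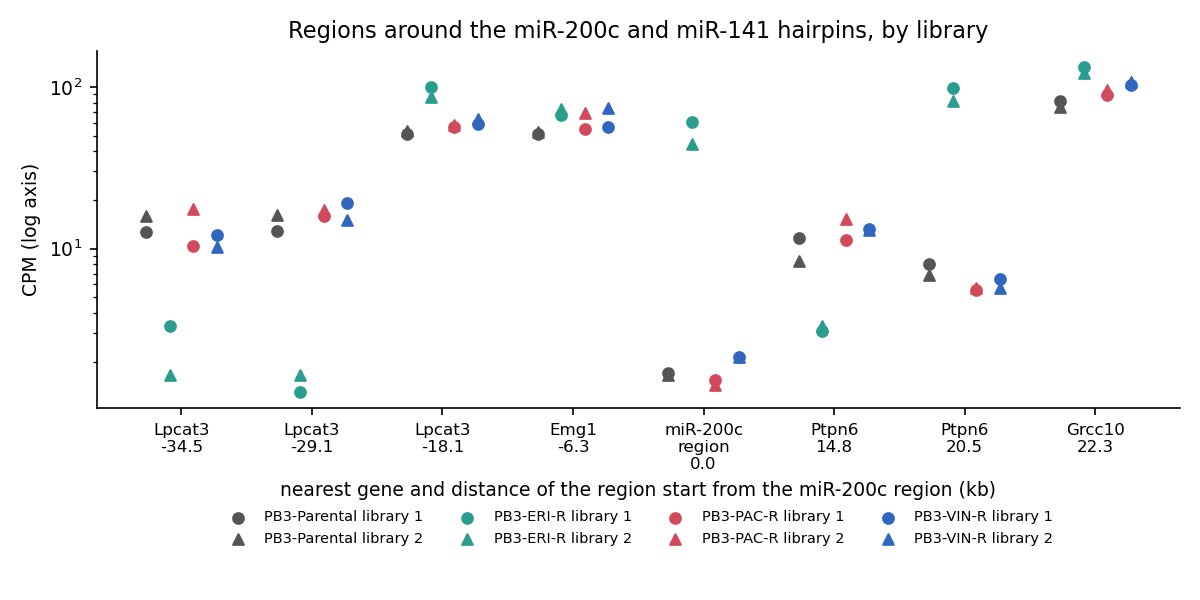
CPM on a log axis for each library (circles library 1, triangles library 2) at 8 regions around the miR-200c and miR-141 hairpins, named by their nearest gene with the distance of each start from the miR-200c region in kb. PB3-ERI-R (60.5 and 44.4 CPM) is far above the 3 other lines (1.44 to 2.14 CPM) at the miR-200c region and again at the Ptpn6 promoter.

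The 5 largest gains in PB3-ERI-R, ranked by fold, started from almost no signal, which a ranking by fold favours. Such a region is in the table and above the minimum mean level through PB3-ERI-R, where it is high. A region 36.4 kb from Sspn, a gene of the dystrophin complex, had 0.120 and 0.200 CPM in PB3-Parental and 40.2 and 25.8 in PB3-ERI-R (log2 7.64 ± 0.46). The parental values are near or under 3 counts, which equal 0.181 and 0.200 CPM in those libraries, so this fold depends on the small parental counts. Regions near Bcl2l14 (a BCL2 family gene), Ddx47 (an RNA helicase gene), Phc1 (a Polycomb gene) and in Erc1 rose by 7.32, 7.15, 7.09 and 7.07 on the log2 scale. Their parental values were low too, 0 to 0.532 CPM per library. The largest falls lay in Vmn2r19 (-5.94), Sox5 (-5.91), Il17rc (-5.86) and Grin2b (-5.84), and near Clec4b2, where the 2 libraries of PB3-ERI-R held 1 count each against 5.12 and 6.85 CPM in PB3-Parental. The one in Il17rc is also over the Creld1 promoter printed above, and it had 34.1 and 31.5 CPM in PB3-Parental and 0.372 and 0.775 in PB3-ERI-R. In PB3-PAC-R and PB3-VIN-R it had 28.0 to 30.4, just under the parental values.

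Loci of the lists moved both ways in PB3-ERI-R. Of the growth, cell cycle and repair list, 4 rose and 6 fell of 24 (41.7%, where 58.5% of all loci were called). Ccnd2 fell from 32.1 and 31.3 CPM to 11.6 and 15.7 (log2 -1.22 ± 0.17), and Foxm1 from 20.8 and 27.5 to 11.9 and 12.2 (adjusted p = 9.99e-04 by edgeR). Rad18, a repair ligase gene, fell as well (-0.76), while Strap rose (0.94). Cdkn1b rose from 122 and 136 to 165 and 172 (log2 0.39; adjusted p = 0.0136 by edgeR), a call that was lost without PB3-ERI-R library 2 or PB3-Parental library 1, with no scaling factor (0.30, adjusted p = 0.0581) and with offsets per window (0.10, adjusted p = 0.476). Etv6, Lrp6, Vhl, Gapdh and Chd4 were not called.

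In the signalling list 4 rose and 11 fell of 24 (62.5%, near the 58.5% of all loci). Hrh1, a histamine receptor gene, went from 122 and 123 CPM to 22.2 and 23.6, and Fgf23, a hormone gene, from 41.4 ± 5.45 to 2.82 ± 0.452 (SD, n = 2). Dusp16, a phosphatase of MAP kinases, rose from 49.6 and 53.8 to 227 and 200. The metabolic list had 4 and 4 of 19 (42.1%, beside 58.5% of all loci), with Golt1b (-3.18) and Bcat1 (-2.91) among the falls. Golt1b was also higher in PB3-PAC-R (38.2 and 51.5 CPM) and PB3-VIN-R (57.3 and 56.5) than in PB3-Parental (27.7 and 22.1).

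Of the 12 epithelial, mesenchymal and matrix loci, 5 rose and 3 fell in PB3-ERI-R (66.7%, beside 58.5% of all loci). Pparg fell from 119 and 138 CPM to 28.1 and 24.9 (log2 -2.28 ± 0.12), and Grm7, with 6 regions, from 104 ± 15.2 to 2.61 ± 1.67 (SD, n = 2; log2 -5.37). Grm7 was on the list as set, but it is a glutamate receptor gene, so its fall is not read as an epithelial, mesenchymal or matrix change. A2m, a protease inhibitor gene, rose from 0.0716 and 0.310 to 11.7 and 10.6. The microtubule related list had 1 rise and 3 falls of 6 (66.7%, against the same 58.5%). Bicd1 (-1.15), Tuba3b (-3.18) and Ppfibp1 (-1.06) fell, and Tuba8 rose (0.60), a call that was lost without PB3-ERI-R library 1 or either of the parental libraries and with offsets per window (0.30).

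The lectin-like receptor list was taken by gene symbol, not by position in the NK gene complex. It had the lowest median of the lists in PB3-ERI-R, -2.03 over 29 loci, with 8 rises and 15 falls (79.3% called, beside 58.5% of all loci). Olr1, a receptor for oxidized lipoprotein, went from 11.7 and 16.6 CPM to 0.447 and 0.433. Clec4d went from 19.6 and 26.7 to 1.61 and 2.82, and Clec4b2 from 6.09 and 7.99 to 0.0894 and 0.108. These Clec4 genes, which start at 123262107 and 123172868, lie apart from the Klrb1 genes, the first of which starts at 128609227. Some of these receptors, like the Slco1a, Tuba3 and Vmn2r genes, have near-identical copies close by. How reads shared between copies were counted was not stated in the labels or file headers. The leukocyte marker Ptprc had 42.3 CPM ± 16.9 in PB3-Parental and 6.76 ± 0.708 in PB3-ERI-R (SD, n = 2), and Itgam had 17.3 ± 6.18 and 3.10 ± 0.550. The summed level of the leukocyte list was 43.3 to 76.0 CPM in PB3-Parental and 9.74 to 9.97 in PB3-ERI-R, with no region at Cd68 and Adgre1. Other marker lists were lower in PB3-ERI-R too. The endothelial sum was 97.5 to 98.4 CPM in PB3-Parental against 60.4 to 64.2 in PB3-ERI-R. The adipocyte sum was 36.5 to 38.7 against 11.2 to 12.2, and the mesenchymal sum 523 to 542 against 313 to 324. The epithelial sum was higher, at 378 to 511 against 777 to 894. The part of leukocytes or other cell types in the result was not tested. Slco1a5 (2.08) and Slco1a6 (1.12) rose in PB3-ERI-R, so at Slco1a5 and Slco1a6 all 3 resistant lines were above the parental libraries.

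Promoter regions of the stretch rose more often than they fell in PB3-ERI-R. Of the 190 regions over a promoter window, 93 rose and 22 fell (48.9% and 11.6%), beside 45.3% and 8.5% of the 9679 such regions of the genome. The GC box was found in 68.0% of the 122 promoter windows whose region rose, in 33.3% of the 24 whose region fell and in 47.2% of the 89 not called, against 35.6% of all 32817 windows and 67.2% of the 12306 that have a region. Over all chromosomes the shares were 68.7%, 51.3% and 68.5%. The AP-1 motif was found in 2.5%, 41.7% (10 of 24) and 4.5% of the same groups, in 7.8% of all windows and in 6.0% of those with a region. Over all chromosomes it was found in 4.4% of the windows whose region rose, 19.7% of those whose region fell and 5.2% of those not called. Windows of the same gene overlap, the 24 being from 21 genes, and a match is only a string of letters.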

How the data were processed

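Open chromatin was measured by paired-end ATAC-seq (76 bp reads) in 8 libraries, 2 for each of 4 lines, grouped by the cell line given in the labels. Per the submitters' processing notes, which give no role or order, the authors used Bowtie2 2.2.6, featureCounts, MACS2 2.1.1 and cutadapt 1.9.1, among other tools, with the builds GRCm38 and mm10. How reads were shifted for the transposase, and whether reads or fragments were counted, was not stated in the labels or headers. The authors' deposited table gives unnormalized whole-number counts for each region. The deposited peak lists, 1 per line and not per library, give a score, a fold enrichment (ratio) at the summit and a -log10 q. The deposited list of regions gives other values, the start and end positions.

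Counts were fitted with edgeR 4.0.16 in R 4.3.3. FilterByExpr by line kept 57415 of 57417 regions. For regions, the PB3-ERI-R libraries had TMM factors of 0.8023 and 0.8584, against 1.0355 to 1.0899 in the other lines. A quasi-likelihood model took the 8 libraries together, with a coefficient for each line, and p-values were adjusted by Benjamini-Hochberg over the whole table, with a threshold of 0.05. Sums over 536 windows of 5 Mb (by region start) and over 14943 gene loci went through the same model, with TMM factors computed anew. Region, window and locus values of PB3-ERI-R are therefore not on the same scale. The only region of the Phb2 locus had log2 4.96 as a region and 4.68 as a locus. Regions were given to the closest protein-coding gene of RefSeq GRCm38.p6, up to 50 kb away. Deviations are medians of log2 CPM (prior count 2) minus the mean of the parental libraries. A floor of 3 counts equals 0.114 to 0.332 CPM and covers counting error only. The model was tested on simulated data.

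The stretch, the gene lists and the tests were chosen with earlier results of these data known. Named genes were 13 fixed loci, 2 of which are not reported here, up to 3 loci per list with the smallest adjusted p in PB3-ERI-R, and the 5 highest and 5 lowest regions per comparison, 1 per gene. Those regions needed a mean log2 CPM of 2 or more, 1 sign over every pairing of replicates and a gene up to 50 kb away, and the regions at the boundary were added. Alternatives were DESeq2 1.42.0, other scalings, no filter, offsets per window, a replicate block, other boundaries and window sizes, classes of region, and leaving out each library.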

Additional observations from a re-analysis of the deposited data

Results flagged for a closer look

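Outside the distal stretch but on the same chromosome, 6 windows differed between PB3-VIN-R and PB3-PAC-R in edgeR's quasi-likelihood test with Benjamini-Hochberg adjustment over 536 windows, each lower in PB3-VIN-R. The difference itself was tested, but a choice by a shared rise left these windows out, which can favour a difference in them. The log2 differences were -0.30 for 15 to 20 Mb, -0.24 for 35 to 40 Mb, -0.23 for 40 to 45 Mb, -0.20 for 50 to 55 Mb, -0.23 for 70 to 75 Mb and -0.23 for the window that starts at 100 Mb, with adjusted p-values of 0.0175 to 0.0467. None of the 8 distal windows passed, which does not show that the 2 lines are alike there.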

How the results depend on the processing

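The 3 counts of distal features called in PB3-ERI-R kept within 1.5 times their value under the alternatives run, except that 9 of 20 windows of 2 Mb were called where 4 of 8 of 5 Mb were. Leaving out libraries gave 755 to 833 regions, 3 to 4 windows and 154 to 180 loci. Of 48 named loci and regions called in PB3-ERI-R, 43 kept their call and direction in every alternative, 5 lost the call in at least 1 and 0 changed direction. The counts of 0 between PB3-VIN-R and PB3-PAC-R stayed at 0 except that the replicate block gave 5 distal regions, all higher in PB3-VIN-R. The labels do not say whether libraries of equal number belong together. Differences between libraries 2 and 1 correlated across regions by 0.073 to 0.446 between lines, most between PB3-PAC-R and PB3-VIN-R. With 2 pairs per comparison, this cannot settle whether the libraries are paired. Windows below 110 Mb called between those lines were 6, but 17 with the replicate block, 2 with DESeq2-type size factors, 3 of 54 in 2 Mb windows and 0 to 10 without single libraries, an analysis added after seeing the data. The distal median of PB3-ERI-R, 0.09, was 0.06 with DESeq2-type size factors, -0.27 with no scaling factor, 0.05 with a start 5 Mb earlier or later, 0.45 for peaks of all 4 lines, 0.41 at gene ends, -0.39 away from them and 0.34 by summed CPM. Leaving out libraries gave medians of 0.18 to 0.31 in PB3-PAC-R, 0.26 to 0.36 in PB3-VIN-R, 0.02 to 0.12 between them and 0.07 to 0.09 in PB3-ERI-R. Uncalled PB3-ERI-R values changed sign with local offsets at Etv6 (-0.13), Gapdh (-0.20) and the Slc6a12 region (-0.16). They changed sign with no scaling factor at the Slc6a12 region (-0.21) and the Slco1a1 region (-0.05). Leaving out single libraries gave -0.08 to 0.39 at Gapdh, -0.78 to 0.75 at the Slc6a12 region, -0.13 to 0.01 at Lrp6 and -0.18 to 0.01 at Vhl. The causes were not tested.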
